A study of Mus musculus with 22 samples.

Results

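The 10 genes described here encode surface proteins that are used to recognise or sort blood stem cells and their precursors: *Procr*, *Cd34*, *Ace*, *Cd93*, *Emcn*, *Ptprc*, *Spn*, *Cd27*, *Cd48* and *Slamf1*. They were taken as a list of gene names, drawn up with earlier results of these data known, and all 10 were found among the 24454 gene symbols of the raw count table. The table holds 22 bulk RNA-seq libraries, each made from 25 cells of the aorta-gonad-mesonephros (AGM) region of C57BL/6 mouse embryos, and all cells were sorted as positive for VE-Cadherin, an adhesion protein of endothelial junctions. CD44, a receptor for hyaluronan, and the growth factor receptor Kit then divided them into 4 populations. CD44Neg, labelled as endothelial cells, had 10 libraries, 4 of them from E9.5, 3 from E10 and 3 from E11, and CD44LowKitNeg, labelled as hemogenic endothelial cells, had 6, with 1, 2 and 3 from these days. CD44LowKitPos, labelled Pre-HSPC for precursors of haematopoietic stem and progenitor cells (HSPCs), had 3 (1 from E9.5 and 2 from E10), and CD44High, labelled HSPC, had 3, all from E11. The embryos carried no transgene or treatment that the labels name, and the labels do not say which libraries came from separate embryos, so the p-values measure the spread between these libraries only. Each library's label ends in a number of 6 digits that is the same for all libraries of a stage and differs between stages. The labels do not say what it marks, and it cannot be told apart from stage.

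During the endothelial to haematopoietic transition, cells in the wall of the dorsal aorta lose endothelial features, round up and become blood cells. Surface proteins have long been used to place cells along this path: VE-Cadherin-positive cells first acquire CD41 and CD43, and CD45 marks the later, more mature blood cells. Other surface proteins are shared by endothelium and stem cells, so that endothelial protein C receptor, CD34 and angiotensin-converting enzyme appear in sorting schemes for both. In adult bone marrow, stem cells are commonly sorted as CD150-positive and CD48-negative.

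Between 3912350 and 8657546 counts were assigned to genes in each library. Values are given as normalized CPM, which are counts divided by the library size after scaling by the TMM method, and a count of 0 in a library allowed up to 3 counts, which was 0.348 to 0.816 normalized CPM. Amplified reads without molecular identifiers were counted, and the limits and intervals given therefore cover counting error only. Comparisons used edgeR's quasi-likelihood test over all genes that passed a filter on low counts, with Benjamini-Hochberg adjustment, and a gene was called changed at an adjusted p under 0.01. *Cdh5*, the gene of VE-Cadherin, had 0 counts in all 3 CD44High libraries, against 187 to 640 normalized CPM in CD44Neg and 510 to 1158 in CD44LowKitNeg. *Cd44* had 2.14 to 58.9 in CD44Neg, 158 to 349 in CD44LowKitNeg, 195 to 354 in CD44LowKitPos and 171 to 340 in CD44High. *Kit* had 18.3 to 83.0, 19.6 to 69.4, 174 to 270 and 39.4 to 120 in the same order. The RNA of these genes thus did not follow every gate of the sort. A list of 10 macrophage genes summed to 3760 to 6086 normalized CPM in CD44High, against 168 to 230.0 in CD44LowKitPos, 0 to 72.4 in CD44LowKitNeg and 1.21 to 16.95 in CD44Neg. All 10 were called higher in CD44High than in CD44LowKitNeg and in CD44Neg, where 7.79% and 7.14% of all genes were. Of the 10, 6 were called higher than in CD44LowKitPos, where 0.78% of all genes were. The complement genes *C1qa*, *C1qb* and *C1qc* and the macrophage receptor gene *Adgre1* were at 0 in every CD44Neg, CD44LowKitNeg and CD44LowKitPos library, while none of the 10 was at 0 across CD44High. A list of 10 endothelial genes summed to 3505 to 6439 normalized CPM in CD44Neg, 4037 to 10165 in CD44LowKitNeg, 848 to 2124 in CD44LowKitPos and 71.9 to 153 in CD44High. *Rn45s*, a precursor of ribosomal RNA, took 16.6 to 23.9% of the counts in CD44High, against 6.82 to 9.26% in CD44LowKitPos, 7.29 to 19.2% in CD44LowKitNeg and 1.92 to 19.3% in CD44Neg. In bulk samples, fewer cells of a type and less RNA per cell cannot be told apart.

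**Figure D1:**
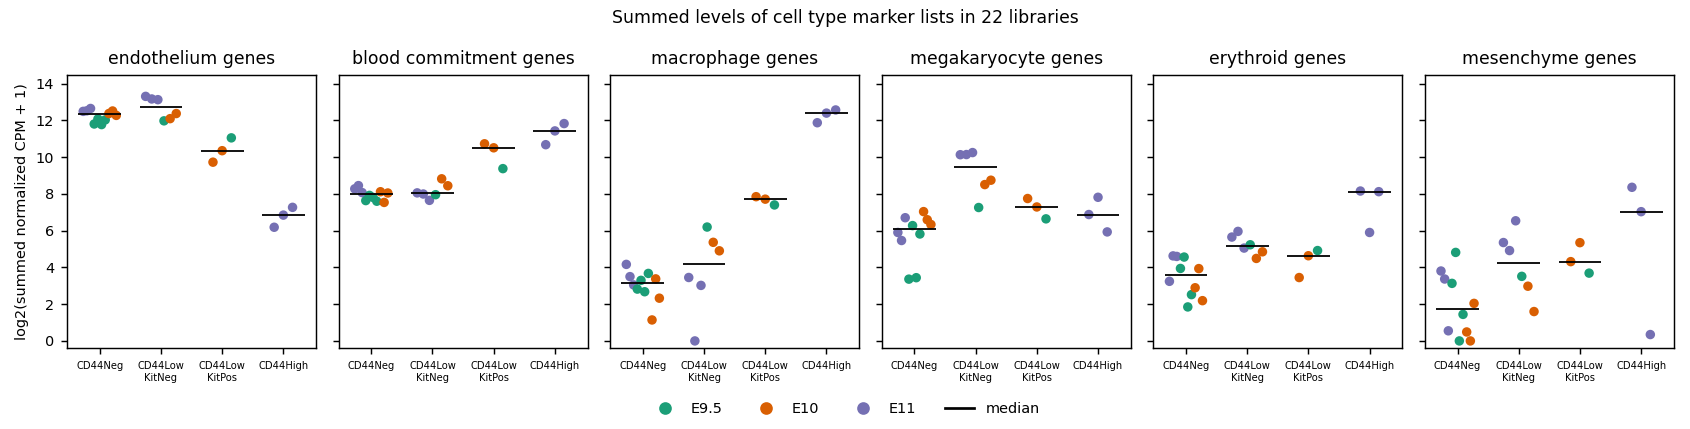
Summed normalized CPM of 6 marker lists on a log2 scale (y axis, 1 added) in the 4 populations (x axis), with 1 point per library coloured by embryonic day and a line at the median. The 3 CD44High libraries sit between 3760 and 6086 normalized CPM of macrophage genes, above all 19 other libraries.

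The 10 genes fell into those whose mean was highest in CD44Neg or CD44LowKitNeg, *Procr*, *Cd34*, *Ace*, *Cd93* and *Emcn*, and those that were absent or nearly so from CD44Neg, *Ptprc*, *Spn*, *Cd27*, *Cd48* and *Slamf1*. Between CD44LowKitNeg and CD44Neg, 5 of the 10 passed the filter and 1 was called, against 10.2% of all 11022 genes tested, and the called gene was *Procr*, in the direction taken by 4.94% of all genes. Between CD44LowKitPos and CD44LowKitNeg, 9 passed the filter and 2 were called (*Ptprc* higher and *Emcn* lower), against 4.26% of 12949 genes, 2.55% higher and 1.71% lower. Between CD44LowKitPos and CD44Neg, 3 of 9 were called (*Ptprc* and *Cd27* higher, *Emcn* lower), against 3.48% of all genes, 2.08% higher and 1.41% lower. Between CD44High and CD44LowKitPos, 6 of 9 were called, *Ptprc* and *Cd48* higher and *Procr*, *Cd34*, *Cd93* and *Emcn* lower, against 3.01% of all genes, 0.78% higher and 2.23% lower. The same 6 genes were called in the same directions between CD44High and CD44LowKitNeg, where 16% of all genes were called (7.79% higher and 8.17% lower), and between CD44High and CD44Neg, where 14.4% were (7.14% and 7.25%). Without *Rn45s* the same 6 were called in all 3 comparisons. Between CD44High and CD44LowKitPos, stage as a covariate called 4 of these 6 (*Procr*, *Cd34*, *Cd93* and *Emcn*), and limma voom called 3 of them (*Cd34*, *Ptprc* and *Cd48*) and *Cd27*. No stage holds both of these populations, so that stage and population cannot be told apart for any of the 6. The covariate takes its shift to E11 from CD44Neg and CD44LowKitNeg, and whether that shift holds in the other populations was not tested. Without each library in turn, 4 to 6 of the 10 genes were called. These 3 comparisons share the CD44High libraries, and *Slamf1* passed the filter in none. The median log2 fold change of those of the 10 genes that were tested was 0.58 for CD44LowKitNeg against CD44Neg, over 5 genes. Over 9 genes it was −0.42 for CD44LowKitPos against CD44LowKitNeg and −2.92 for CD44High against CD44LowKitPos. The first median is thus not over the same genes as the others and cannot be compared with them. Genes that had 3 counts or fewer in a population were set at their bound or count ratio. Without that setting the medians were 0.58, −0.42 and −3.29. The median of all genes tested, also without it, was 0.01, −0.02 and −0.02. *Cd48* passed the filter by its counts in CD44High (928, against 4 in CD44LowKitPos). *Cd27* passed mainly by CD44LowKitPos (407, against 7 in CD44Neg). The shares called of 9 genes rest in part on such genes.

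**Figure D2:**
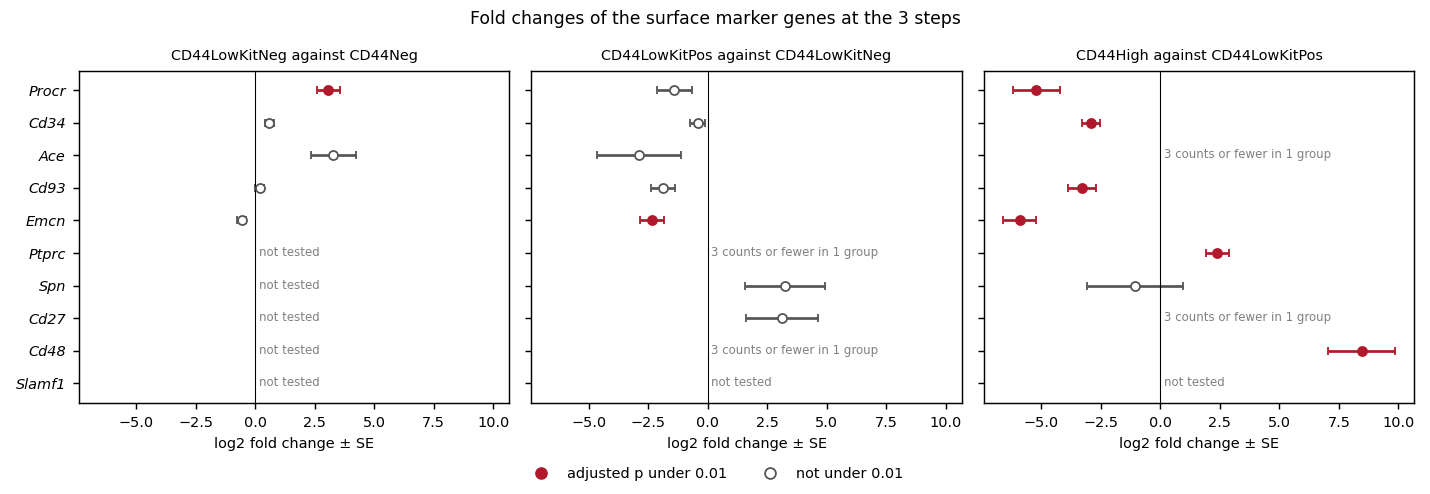
Log2 fold changes (x axis) with standard errors of the 10 surface marker genes (y axis) at the 3 steps from CD44Neg through CD44LowKitNeg and CD44LowKitPos to CD44High, with filled points for genes called at an adjusted p under 0.01. Of the genes drawn, 1 is called at the first step, 1 at the second (*Emcn*) and 6 at the last, and genes with 3 counts or fewer in a population carry words in place of a point.

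*Procr* encodes the endothelial protein C receptor, which presents protein C for activation on endothelium and marks blood stem cells. It lies at chr2:155751117-155755471 on the plus strand (mm10). In CD44Neg it ranged from 0 to 26.7 normalized CPM with a median of 14.4 over 10 libraries, and in CD44LowKitNeg from 46.1 to 229 with a median of 126 over 6. The lowest CD44LowKitNeg library, the only one from E9.5, was above the highest CD44Neg library, so the populations did not overlap. The means were 15.8 ± 7.85 (SD, n = 10) and 132 ± 60.2 (n = 6), an 8.31-fold ratio, and the log2 fold change was 3.07 (SE 0.48, adjusted p = 2.1e-04). When each of the 16 libraries was left out in turn, *Procr* stayed called, with log2 fold changes of 2.83 to 3.26. At E11 alone it was called with 3.06 (adjusted p = 0.00212). Among the E9.5 and E10 libraries alone the value was 2.90 and the adjusted p was 0.0184.

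The 3 CD44LowKitPos libraries had 52.1, 55.4 and 41.9 normalized CPM of *Procr*. They lay between the medians of CD44Neg and CD44LowKitNeg and above every CD44Neg library, but the E9.5 CD44LowKitNeg library at 46.1 was among them. Neither difference passed the test. On the log2 scale they were −1.40 against CD44LowKitNeg (SE 0.72, adjusted p = 0.214) and 1.65 against CD44Neg (SE 0.59, adjusted p = 0.0891). The CD44High libraries had 1.78, 2.13 and 0 normalized CPM, from 9, 8 and 0 counts. *Procr* fell there by 5.20 on the log2 scale against CD44LowKitPos (SE 0.996, adjusted p = 0.00145). The values against CD44LowKitNeg and CD44Neg were −6.61 (adjusted p = 3.5e-05) and −3.55 (adjusted p = 0.00427), both called. The call against CD44LowKitPos was lost without CD44High replicate 22, at an adjusted p of 0.0103, and the call against CD44Neg was lost without any 1 of the 3 CD44High libraries, at up to 0.0249. With limma voom neither call was made, at adjusted p-values of 0.0722 against CD44LowKitPos and 0.230 against CD44Neg.

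The promoter of *Procr*, the 300 bases from 250 before to 50 after its RefSeq start (GRCm38.p6, chr2:155750967-155751266, plus strand), is shown because it is the member called between the endothelial populations. It holds 58.3% G and C and 13 CpG, against medians of 52.7% and 7 over 32851 mouse promoter windows, and none of the 3 motifs searched, so that it is printed without capitals.
*Procr* promoter: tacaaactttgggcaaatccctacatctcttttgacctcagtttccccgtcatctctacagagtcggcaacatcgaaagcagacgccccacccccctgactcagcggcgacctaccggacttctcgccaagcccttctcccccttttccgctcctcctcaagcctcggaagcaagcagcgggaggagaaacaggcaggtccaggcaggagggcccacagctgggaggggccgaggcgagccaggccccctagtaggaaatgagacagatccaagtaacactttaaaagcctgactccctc

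*Cd34* encodes a sialomucin of endothelium and blood progenitors (chr1:194938819-194961279, plus strand). Per kb of exon it was among the 2 highest of the 10 genes in CD44Neg, CD44LowKitNeg and CD44LowKitPos. CD44Neg libraries ranged from 546 to 1237 normalized CPM with a median of 1040, and CD44LowKitNeg libraries from 958 to 2057 with a median of 1521. The ranges overlapped, and the log2 fold change of 0.58 (SE 0.19) gave an adjusted p of 0.0336. CD44LowKitPos had 1236, 1244 and 912 normalized CPM, of which 1244 was just above the highest CD44Neg library at 1237 and the others within the range of CD44Neg. Its log2 fold changes were 0.15 against CD44Neg (SE 0.29, adjusted p = 0.857) and −0.42 against CD44LowKitNeg (SE 0.32, adjusted p = 0.425). CD44High had 107, 265 and 77.0 normalized CPM, all below every other library. *Cd34* fell there by 2.92 on the log2 scale against CD44LowKitPos (SE 0.39, adjusted p = 2.4e-05), with −3.34 against CD44LowKitNeg and −2.77 against CD44Neg. All 3 calls held without any single one of the 22 libraries. An antisense gene, *Gm16897*, overlaps *Cd34* over 5521 bases and had 986 counts over all libraries, and reads of the 2 strands cannot be told apart in libraries that do not keep strand.

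*Ace* encodes angiotensin-converting enzyme, a peptidase that marks early human haematopoietic precursors and endothelium (chr11:105967945-105989964, plus strand). The 10 CD44Neg libraries ranged from 0 to 8.52 normalized CPM with a median of 0.878, and 3 of them had 0 counts. The 6 CD44LowKitNeg libraries ranged from 4.06 to 26.6 with a median of 19.3, so that all 6 were above the CD44Neg median and 4 were above the highest CD44Neg library. The log2 fold change was 3.29 (SE 0.94), about as large as that of *Procr*, but the adjusted p was 0.0170. Without CD44Neg replicate 3, which had 55 of the 90 counts of that population, *Ace* was called. In CD44LowKitPos it had 0, 0 and 42 counts, the last in the E9.5 library, and in CD44High 0 counts in all 3 libraries. The log2 fold change of CD44LowKitPos was −2.90 against CD44LowKitNeg (SE 1.76, adjusted p = 0.305) and 0.38 against CD44Neg (SE 1.39, adjusted p = 0.935). CD44High gave adjusted p-values of 0.171 against CD44LowKitPos and 0.0813 against CD44Neg. The mean of the 6 CD44LowKitNeg libraries was at least 21.5-fold higher than CD44High against a limit of 3 counts per library. The adjusted p of this difference was 0.0132, which did not pass the threshold, and 0.00571 among the E11 libraries alone.

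*Cd93* encodes a C-type lectin receptor of endothelium and early progenitors (chr2:148436640-148443563, minus strand), and *Emcn* encodes endomucin, a sialomucin of capillary and venous endothelium that also marks stem cells (chr3:137341067-137432185, plus strand). CD44Neg and CD44LowKitNeg overlapped for both genes, with log2 fold changes of 0.20 (SE 0.19, adjusted p = 0.519) for *Cd93* and −0.57 (SE 0.19, adjusted p = 0.0378) for *Emcn*. *Emcn* ranged from 862 to 1512 normalized CPM with a median of 1094 in CD44Neg, and from 328 to 1049 with a median of 742 in CD44LowKitNeg. With stage as a covariate the *Emcn* difference was −0.68 and passed the threshold (adjusted p = 0.00927).

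In CD44LowKitPos, *Emcn* had 71.5 and 65.8 normalized CPM in the E10 libraries and 300 in the E9.5 library. All 3 lay below every CD44LowKitNeg library, the lowest of which had 328. *Emcn* fell by 2.36 on the log2 scale (SE 0.51, adjusted p = 0.00476), and the call was lost without CD44LowKitPos replicate 17 or replicate 18, at an adjusted p of up to 0.0505, and among the E9.5 and E10 libraries alone (0.0354). *Cd93* had 78.8 and 84.3 normalized CPM at E10 and 265 at E9.5, also below every CD44LowKitNeg library, at a log2 fold change of −1.88 (SE 0.50) that missed the threshold (adjusted p = 0.0164). *Cd93* was called without CD44LowKitPos replicate 19 or CD44High replicate 20 or 21, at an adjusted p down to 0.00330. When both E9.5 CD44Low libraries were left out, a choice made after seeing the data, both genes were called, *Cd93* at −2.77 (adjusted p = 0.00364) and *Emcn* at −3.55 (adjusted p = 2.0e-04). Against CD44Neg, *Emcn* in CD44LowKitPos was called at −2.94 (SE 0.51, adjusted p = 7.3e-04), a call lost without replicate 17 or replicate 18 (adjusted p up to 0.0113), and *Cd93* was at −1.69 (SE 0.48, adjusted p = 0.0306). There *Cd93* was called without CD44LowKitPos replicate 19 or CD44High replicate 20, at an adjusted p down to 0.00438. The endothelial list moved with these genes, at 848 and 1308 normalized CPM in the E10 CD44LowKitPos libraries and 2124 in the E9.5 library. In CD44High, *Emcn* had 12, 18 and 0 counts and *Cd93* 12, 121 and 35. Both fell against CD44LowKitPos, *Emcn* with −5.91 on the log2 scale (SE 0.68, adjusted p = 2.6e-06) and *Cd93* with −3.29 (SE 0.59, adjusted p = 7.2e-04), and both calls held without each library in turn. With limma voom neither was called, at adjusted p-values of 0.0184 for *Emcn* and 0.0246 for *Cd93*. Against CD44LowKitNeg and CD44Neg, CD44High was at −8.27 and −8.85 for *Emcn* and at −5.16 and −4.97 for *Cd93*, all called.

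**Figure D3:**
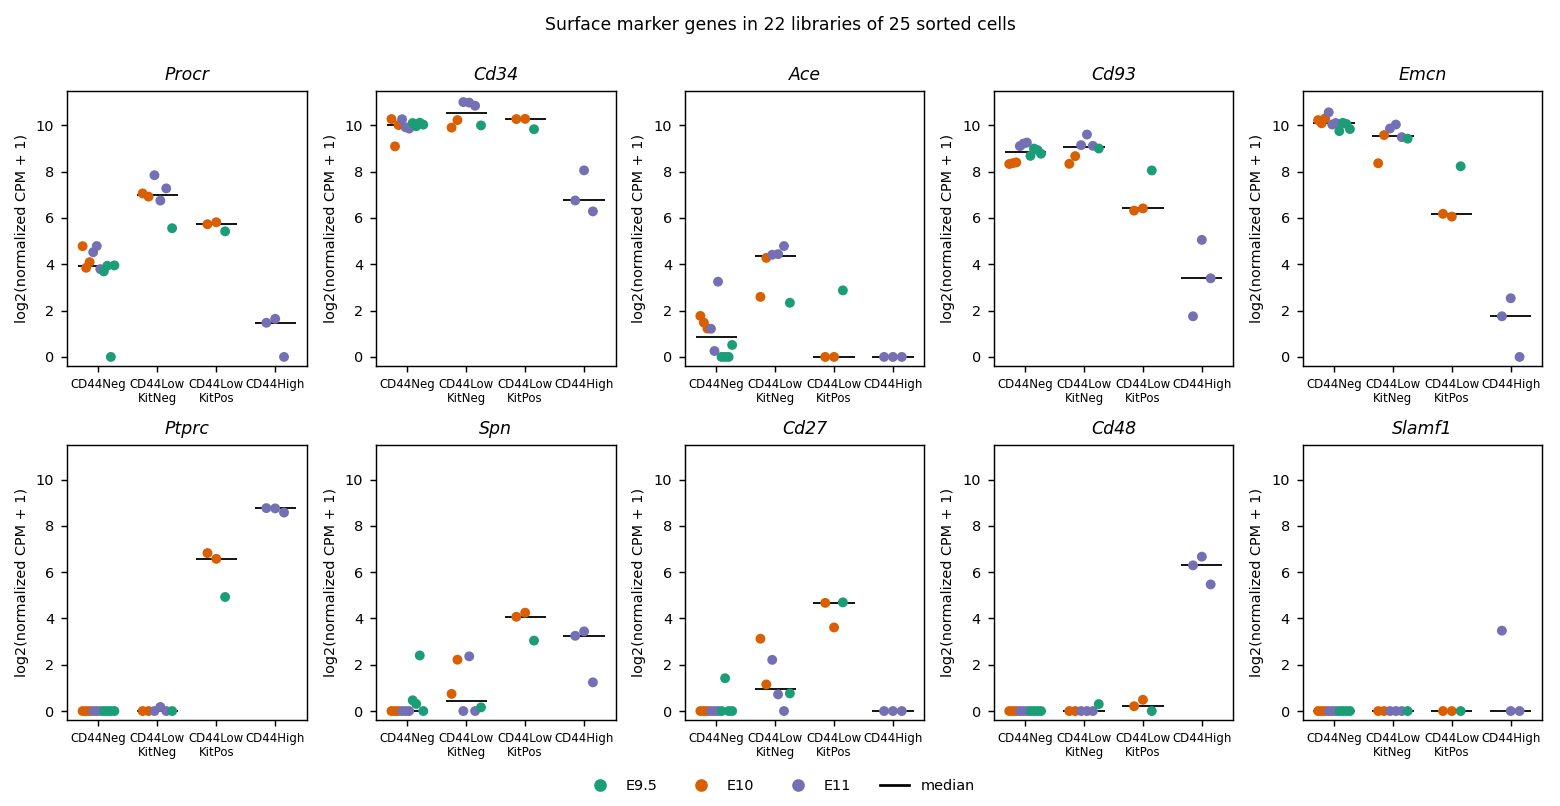
Levels of the 10 surface marker genes as log2(normalized CPM + 1) (y axis) in the 4 populations (x axis), with 1 point per library coloured by embryonic day and a line at the median. *Procr* and *Ace* have their highest median in CD44LowKitNeg, *Cd27* in CD44LowKitPos, and *Ptprc* and *Cd48* in CD44High, where *Slamf1* has counts in 1 of 3 libraries.

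*Ptprc* encodes CD45, the receptor tyrosine phosphatase of all nucleated blood cells (chr1:138062861-138175708, minus strand). It had 0 counts in all 10 CD44Neg libraries and 1 count in the 6 CD44LowKitNeg libraries together. The CD44LowKitPos libraries had 724, 706 and 195 counts, or 112, 94.2 and 29.4 normalized CPM, and the CD44High libraries had 2192, 1615 and 1396 counts, or 434, 430.0 and 380 normalized CPM. The 4 populations separated without overlap except for the 2 endothelial ones. CD44LowKitPos was at least 130-fold higher than CD44Neg against a limit of 3 counts per library, and the ratio of its pooled counts to those of CD44LowKitNeg was 3443, with an exact 95% interval of 617 to 136088. CD44High was at least 684-fold higher than CD44Neg. Both differences stayed called when each of the 22 libraries was left out in turn. Among the E9.5 and E10 libraries alone the adjusted p against CD44LowKitNeg was 0.0104, in a fit that called 9 genes in all.

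Between CD44High and CD44LowKitPos, *Ptprc* rose by 2.40 on the log2 scale (SE 0.47, adjusted p = 0.00508), from a mean of 78.6 ± 43.6 to 415 ± 30.2 normalized CPM (SD, n = 3 each). This call was lost in 6 of 22 such fits, without CD44LowKitNeg replicate 12, CD44LowKitPos replicates 18 and 19 or any CD44High library, with adjusted p-values up to 0.0234, and the log2 fold change stayed between 2.00 and 2.73. With stage as a covariate the log2 fold change was 1.64 and the adjusted p 0.849, and without both E9.5 CD44Low libraries the adjusted p was 0.0148. CD44LowKitPos came from E9.5 and E10 and CD44High from E11, so stage and population cannot be told apart. The macrophage list moved with it, from 168 to 230.0 normalized CPM in CD44LowKitPos to 3760 to 6086 in CD44High. A list of 10 blood commitment genes, among them *Runx1* and *Spi1*, had 665 to 1698 in CD44LowKitPos and 1641 to 3641 in CD44High. In CD44High replicates 20, 21 and 22 the macrophage list was at 3760, 5409 and 6086 and *Ptprc* at 434, 430.0 and 380. The part of either list in the level of *Ptprc* was not tested.

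*Spn* encodes CD43, a leukocyte sialomucin that appears before CD45 on emerging blood cells (chr7:127132232-127137823, minus strand). CD44Neg libraries ranged from 0 to 4.28 normalized CPM with a median of 0, and 23 of their 26 counts came from replicate 6. CD44LowKitNeg libraries had 0, 32, 0, 1, 4 and 27 counts, so that replicates 12 and 16 held most of the 64 counts. CD44LowKitPos libraries had 15.8, 18.01 and 7.24 normalized CPM, above every endothelial library, and CD44High libraries had 8.51, 9.85 and 1.36. The log2 fold change of CD44LowKitPos was 4.73 against CD44Neg (SE 1.45, adjusted p = 0.0476) and 3.24 against CD44LowKitNeg (SE 1.67, adjusted p = 0.216), neither of which passed the threshold. Without CD44Neg replicate 6 the first was called. CD44High was at 3.68 against CD44Neg (SE 1.45, adjusted p = 0.0711) and at 2.18 against CD44LowKitNeg (SE 1.66, adjusted p = 0.354). Its difference from CD44Neg was also called without CD44Neg replicate 6 (adjusted p = 0.00127). Between CD44High and CD44LowKitPos the log2 fold change was −1.05 (SE 2.00, adjusted p = 0.882). The populations overlapped, since the CD44High libraries at 8.51 and 9.85 lay below both E10 libraries of CD44LowKitPos and above its E9.5 library at 7.24.

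The promoters of *Ptprc*, *Spn* and *Cd48* are shown because theirs are the windows of the 10 genes that hold a motif searched for, each 250 bases before to 50 after a RefSeq start (GRCm38.p6). Capitals mark 6-base motifs of blood transcription factor families, searched on both strands without overlap between them: TGTGGT (RUNX, in 16.8% of 32851 mouse promoter windows), GGAAGT (ETS, 23.8%) and AGATAA (factors named GATA, 11.2%). The first *Ptprc* window (chr1:138175256-138175555, minus strand) holds GGAAGT 112 bases before the start and its reverse complement ACTTCC 58 bases before. A further *Ptprc* window (chr1:138175077-138175376, minus strand), which overlaps the first and is not printed, holds ACTTCC 237 bases before its start and AGATAA 25 bases before. The *Spn* window (chr7:127137774-127138073, minus strand) holds ACTTCC 23 bases before the start. The *Cd48* window (chr1:171681742-171682041, plus strand) holds TGTGGT 76 bases before the start and ACTTCC 5 bases after it. No match was found in the windows of *Procr*, *Cd34*, *Ace*, *Slamf1*, *Cd27* and *Emcn*. A match is a description of letters, not a binding site.
*Ptprc* promoter: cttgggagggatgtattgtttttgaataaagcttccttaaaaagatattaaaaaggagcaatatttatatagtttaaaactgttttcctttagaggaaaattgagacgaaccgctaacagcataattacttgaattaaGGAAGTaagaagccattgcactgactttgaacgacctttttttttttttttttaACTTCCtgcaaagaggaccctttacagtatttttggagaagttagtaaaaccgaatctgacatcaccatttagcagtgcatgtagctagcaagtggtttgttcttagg
*Spn* promoter: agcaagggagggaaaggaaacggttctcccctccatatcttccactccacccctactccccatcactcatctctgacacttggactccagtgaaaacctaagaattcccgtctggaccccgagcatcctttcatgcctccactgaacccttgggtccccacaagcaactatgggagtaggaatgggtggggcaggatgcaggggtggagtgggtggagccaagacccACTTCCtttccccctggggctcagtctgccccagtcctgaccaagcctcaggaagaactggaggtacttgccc
*Cd48* promoter: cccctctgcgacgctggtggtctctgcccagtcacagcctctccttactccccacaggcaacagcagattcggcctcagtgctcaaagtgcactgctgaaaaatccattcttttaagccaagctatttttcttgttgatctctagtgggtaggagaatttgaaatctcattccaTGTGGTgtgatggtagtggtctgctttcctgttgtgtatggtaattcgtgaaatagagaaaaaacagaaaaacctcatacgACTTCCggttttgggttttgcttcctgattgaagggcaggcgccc

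*Cd27* encodes a receptor of the tumour necrosis factor family found on lymphocytes and on multipotent progenitors (chr6:125232622-125237010, minus strand). Its counts were 7 in CD44Neg, all in replicate 5, and 27, 5, 0, 6, 46 and 9 in the CD44LowKitNeg libraries. The CD44LowKitPos libraries had 158, 84 and 165 counts, or 24.5, 11.2 and 24.9 normalized CPM, all above every other library. The CD44High libraries had 0 counts. *Cd27* rose by 6.83 on the log2 scale in CD44LowKitPos against CD44Neg (SE 1.41, adjusted p = 0.00358), and the call was lost without CD44LowKitPos replicate 17 or replicate 18, at an adjusted p of up to 0.0214, without both E9.5 CD44Low libraries (0.0106) and among the E9.5 and E10 libraries alone (0.0110). Without each library in turn the log2 fold change was 6.63 to 9.86. Its size rests on the 7 counts of CD44Neg replicate 5. Against CD44LowKitNeg the value was 3.11 (SE 1.51, adjusted p = 0.185). CD44LowKitPos was at least 27.4-fold higher than CD44High against a limit of 3 counts per library, but the adjusted p of that difference was 0.0371. The adjusted p of CD44High was 0.0491 against CD44LowKitNeg and 0.350 against CD44Neg. *Cd27* lies wholly within *Vamp1* on the opposite strand, which had 196 counts over all libraries.

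*Cd48* and *Slamf1* encode receptors of the signalling lymphocytic activation molecule (SLAM) family, CD48 and CD150, and their genes are 61.9 kb apart on chromosome 1 (*Cd48* chr1:171682009-171705258 and *Slamf1* chr1:171767127-171801184, both plus strand). *Cd48* had 0 counts in CD44Neg, 2 in CD44LowKitNeg and 1, 3 and 0 in the CD44LowKitPos libraries, where the adjusted p was 0.0831 against CD44Neg and 0.363 against CD44LowKitNeg. The CD44High libraries had 391, 378 and 159 counts, or 77.4, 101 and 43.3 normalized CPM, and did not overlap with any other library. The log2 fold change against CD44LowKitPos was 8.45 (SE 1.40, adjusted p = 0.00142), and CD44High was at least 122-fold higher than CD44Neg against a limit of 3 counts per library. Without CD44High replicate 20 or 21 the call against CD44LowKitPos was lost, at an adjusted p of up to 0.0155, while those against CD44LowKitNeg and CD44Neg held in all 22 fits. The first had an adjusted p of 0.0537 with stage as a covariate and 0.0131 without both E9.5 CD44Low libraries.

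*Slamf1* had 51 counts in CD44High replicate 20, or 10.1 normalized CPM, and 0 counts in the other 21 libraries. It did not pass the filter on low counts, so that no test of it is given. *Cd48* had 391 counts in the same library. Of the other SLAM genes of this region, *Cd84* had 1243 counts in CD44High, *Slamf9* 128, of which 108 were in replicate 21, *Slamf6* 83, *Cd244* 81, *Ly9* 36, *Slamf8* 14 and *Slamf7* 3. In CD44LowKitPos, *Cd244*, which encodes the receptor of CD48, had 118 counts, *Slamf8* 16, *Slamf9* 15, *Cd84* 7 and *Cd48* 4. These counts are not divided by length, and the genes are not ranked by them. *Cd244* rose in CD44LowKitPos, where the ratio of its pooled counts to those of CD44Neg, which had 2 counts, was 147 (exact 95% interval 39.7 to 1224, adjusted p = 0.00165). It was also called against CD44LowKitNeg, which had 1 count (adjusted p = 0.00507). The counts of *Cd244* and *Ly9* are uncertain, since the annotated genes overlap on opposite strands. The macrophage list was at 3760 normalized CPM or more in every CD44High library and at most 230.0 in the others. In CD44High replicates 20, 21 and 22 it summed to 3760, 5409 and 6086. The blood commitment list had 1641, 2761 and 3641 there, and a mesenchyme list 328, 130 and 0.272. An erythroid list was at 58.8 to 285 in CD44High, 9.93 to 29.2 in CD44LowKitPos and 21.5 to 61.3 in CD44LowKitNeg. The part of these lists in the levels of *Cd48*, *Slamf1* and the other SLAM genes was not tested.

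**Figure D4:**
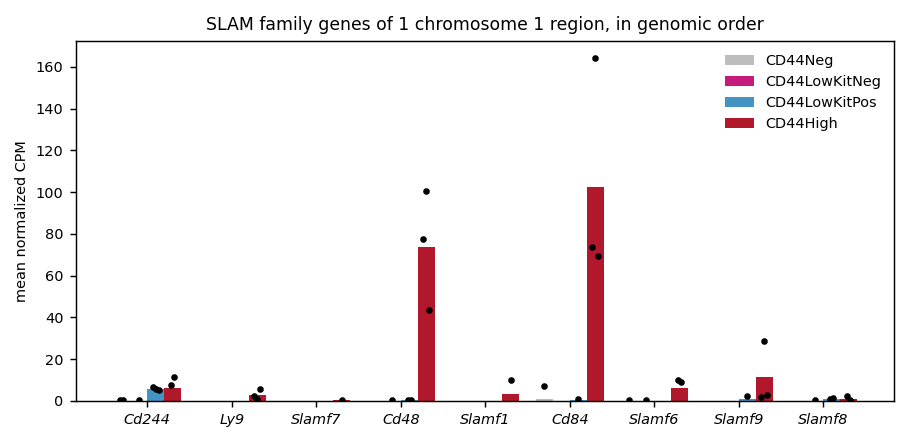
Mean normalized CPM (bars, y axis) of the 9 SLAM family genes of 1 chromosome 1 region in genomic order (x axis) for the 4 populations, with black points for libraries above 0. Bars are not divided by gene length. *Cd48* and *Cd84* are at 73.8 and 102 in CD44High, while *Slamf1* has 1 point and *Cd244* is at 5.75 in CD44LowKitPos and 6.32 in CD44High.

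Levels of different genes were compared after division by the summed exon length. In CD44Neg the order was *Emcn* at 206 ± 33.6 normalized CPM per kb (SD, n = 10), *Cd34* at 140 ± 26.8 and *Cd93* at 68.7 ± 16.3, with *Procr* at 7.79 ± 3.86 and the other 6 below 1. In CD44LowKitNeg *Cd34* led at 208 ± 70.3 (n = 6), before *Emcn* at 138 ± 45.7, *Cd93* at 78.4 ± 23.3 and *Procr* at 64.8 ± 29.6, so that *Procr* lay within 1 SD of *Cd93*. In CD44LowKitPos *Cd34* stood alone at 155 ± 26.1 (n = 3), and *Emcn* at 26.9 ± 24.7, *Procr* at 24.5 ± 3.46 and *Cd93* at 21.4 ± 15.8 did not differ beyond their spread. *Cd27* followed at 8.67 ± 3.34, with *Ptprc* at 4.29 ± 2.38 and *Spn* at 2.92 ± 1.22, and the spreads of *Cd27* and *Ptprc* overlapped. In CD44High *Cd48* led at 62.0 ± 24.3 (n = 3), before *Ptprc* at 22.6 ± 1.65 and *Cd34* at 20.6 ± 13.9, and *Ptprc* lay within 1 SD of *Cd34*. *Cd93* was at 2.20 ± 2.33 and *Procr* and *Emcn* below 1. *Ptprc* was the most even gene of CD44High, with a highest library 1.14-fold above the lowest, against 13.6-fold for *Cd93* and 7.24-fold for *Spn*.

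Stage was examined where a population held libraries of several days. Within CD44Neg, 4 of the 10 genes passed the filter (*Procr*, *Cd34*, *Cd93* and *Emcn*) and edgeR called 0 between E11 and E9.5, E10 and E9.5 or E11 and E10, against 0.684%, 0.0178% and 0% of all genes. At an unadjusted p under 0.05 there were 2, 1 and 1. The share of all genes at that threshold was not counted, so that no excess can be read from these numbers. *Cd93* gave the strongest of these differences. It had 549, 592 and 611 normalized CPM at E11 and 321, 329 and 337 at E10, with the 4 E9.5 libraries between them at 410 to 510. The log2 fold change of E11 against E10 was 0.83 (SE 0.14), with an adjusted p of 0.0692 from edgeR, while DESeq2's Wald test called it (adjusted p = 3.9e-06).

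Within CD44LowKitNeg, 5 of the 10 genes passed the filter, and edgeR called 0 between E11 and the earlier days, against 0.173% of all genes. At an unadjusted p under 0.05 there were 2, again without a count of all genes at that threshold. *Cd34* had 2057, 2026 and 1842 normalized CPM at E11, above the 1022 of the E9.5 library and the 958 and 1199 of the E10 libraries. The endothelial list moved with it, at 8978 to 10165 normalized CPM at E11 against 4037 to 5316 earlier, and its part in the level of *Cd34* was not tested. *Rn45s* took 17.4 to 19.2% of the counts at E11 against 7.29 to 11.1% earlier, and without it the log2 fold change of *Cd34* was 0.93. With it the log2 fold change was 0.94 (SE 0.16, adjusted p = 0.0228), and DESeq2's Wald test (adjusted p = 3.2e-07) and limma voom (adjusted p = 0.00497) called it. Among the E11 libraries alone, *Cd34* was higher in CD44LowKitNeg than in CD44Neg by 0.98 on the log2 scale (adjusted p = 0.00326). The same difference among the E9.5 and E10 libraries was 0.10 (adjusted p = 0.847). The test of that dependence itself, an interaction over the 11 libraries of E10 and E11, gave 0.72 (SE 0.37, adjusted p = 0.519). *Procr*, *Ace*, *Cd93* and *Emcn* gave interactions of 0.23, 0.07, −0.05 and 0.67, and those of *Spn* and *Cd27* could not be estimated with CD44Neg at 0 counts. None of the 10 genes was called for it, against 0.00806% of all genes, and 0 were at an unadjusted p under 0.05. *Ace* had 20.3, 20.7 and 26.6 normalized CPM at E11 against 4.06 at E9.5 and 5.03 and 18.4 at E10, without overlap between E11 and the earlier days. The log2 fold change was 1.34 (SE 0.75), with an adjusted p of 0.438.

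**Figure D5:**
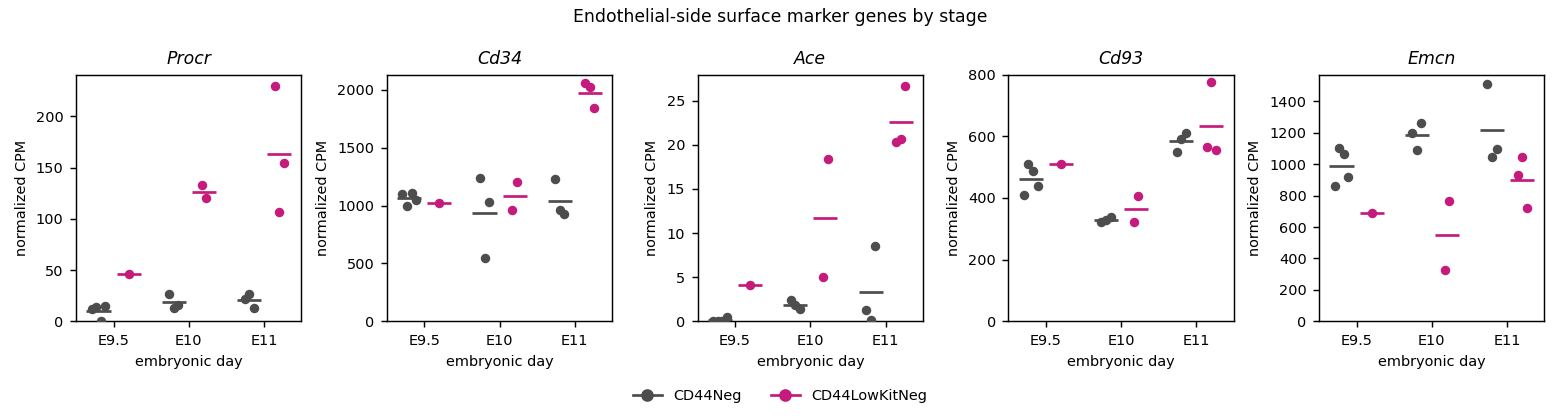
Normalized CPM (y axis) of the 5 genes with counts in most endothelial libraries at E9.5, E10 and E11 (x axis) in CD44Neg and CD44LowKitNeg, with 1 point per library and a line at the mean. *Cd34* in CD44LowKitNeg is highest at E11 (1842 to 2057), and *Cd93* in CD44Neg is lowest at E10 (321 to 337).

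The 10 genes were read beside 2 lists of further genes. Of 22 other surface markers of stem and progenitor cells, 14 were tested between CD44LowKitNeg and CD44Neg and 2 were called, against 10.2% of all genes, both higher: *Adgrg1*, an adhesion receptor of stem cells (log2 fold change 3.71), and *Itga4*, the integrin alpha 4 chain (3.22). Their median was 0.22. Between CD44LowKitPos and CD44LowKitNeg, 4 of 21 were called, against 4.26% of all genes, all higher, among them the tetraspanin *Cd53* (5.15), *Kit* (2.29), whose protein was used for the sort, and *Cd47* (1.81). Against CD44Neg, 7 of 21 were called in CD44LowKitPos, against 3.48%, all higher, and among them *Adgrg1* rose by 6.64 on the log2 scale. In CD44High, 2 of 21 were called higher and 2 lower than in CD44LowKitPos, against 0.78% and 2.23% of all genes, with *Cd52* at 7.50 and *Cd53* at 5.12 on one side and the endothelial adhesion gene *Esam* at −5.50 and the TGF-beta co-receptor *Eng* at −3.91 on the other. Against CD44LowKitNeg these were 5 and 3 of 21 (7.79% and 8.17% of all genes), with *Prom1* at −7.24 and *Cd52* at least 626-fold higher, and against CD44Neg 9 and 3 (7.14% and 7.25%). *Cd52* and *Cd53* are common to leukocytes, and the macrophage list moved with them. Within CD44Neg, *Eng* and *Esam* were higher at E11 than at E9.5, by 1.26 and 0.99.

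The relatives and binding partners of the 10 genes made a list of 33, of which 32 were in the table. Between CD44LowKitNeg and CD44Neg, 4 of 15 tested were called, against 10.2% of all genes, all higher: *Clec14a*, a lectin of the family of *Cd93* (log2 fold change 1.81, adjusted p = 2.4e-05), *Mmrn2*, whose product binds CD93 (1.20, adjusted p = 0.00222), the phosphatase gene *Ptpra* (0.89) and the sialomucin gene *Cd164* (0.83). *Cd93* itself was at 0.20 in this comparison, and the differences between it and its relatives were not tested. Between CD44LowKitPos and CD44LowKitNeg, 2 of 21 were called higher, *Cd244* and *Siva1* (1.26), whose product binds CD27, and 2 lower, *Mmrn2* (−3.16) and *Clec14a* (−2.70), against 2.55% and 1.71% of all genes. Against CD44Neg, *Ptpre*, a phosphatase gene, was higher in CD44LowKitPos by 2.51 and *Mmrn2* was lower (−1.97). In CD44High both *Clec14a* and *Mmrn2* had 0 counts. Their levels were at least 170-fold and 61.2-fold higher in CD44LowKitPos, and the thrombin receptor gene *F2r* was lower in CD44High (−1.92, adjusted p = 0.00748). Against CD44Neg, 7 of 21 were called higher in CD44High and 6 lower, against 7.14% and 7.25% of all genes. No counts of *Cd70*, the gene of the ligand of CD27, or of the angiotensinogen gene *Agt* were found in any library. *F2r* was the 1 gene of this list called within CD44Neg, where it was higher at E11 than at E9.5 by 1.05.

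Across the 22 libraries, the genes most like each of 9 of the 10 (*Slamf1* did not pass the filter and was left out) by Pearson's correlation of log2 CPM followed the populations, which all pairs share. For *Procr* these were *Trim47* (r = 0.90), *Ankrd10* and *Pik3ip1*, and for *Ace* *Smad6* (r = 0.86), *Pde3a* and *Phf14*. For *Cd34* they were *Slco3a1* (r = 0.96), *Myct1* and *Heph*, for *Cd93* *Slc9a3r2* (r = 0.97), *She* and *S1pr1*, and for *Emcn* *Mpzl1* (r = 0.98), *Ecscr* and the VEGF receptor gene *Kdr*. For *Ptprc* they were *Rgs18* (r = 0.996), *5430427O19Rik* and *Arl11*, and for *Cd48* *Casp1* (r = 0.99), the macrophage gene *Adgre1* and *Gpr141*. For *Spn* they were *Gucy1a3* (r = 0.86), *Pstpip1* and *Fmnl1*, and for *Cd27* *Scn11a* (r = 0.82), *Smoc1* and *Fgfr3*. Among these 9 genes themselves, *Cd93* and *Emcn* had the highest correlation (r = 0.94) and *Cd48* and *Emcn* the lowest (r = −0.92), while *Procr* with *Cd34* (r = 0.73) and *Ace* (r = 0.69) and *Ptprc* with *Spn* (r = 0.75) lay between.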

How the data were processed

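The libraries held 25 cells each, whose polyadenylated RNA was amplified with the SMART-Seq2 protocol over 14 cycles, made into Nextera libraries and sequenced. The deposited values are raw counts for 24454 gene symbols. To make them, the authors removed adaptors (FASTX), mapped the reads (RNA STAR) and summed them by gene (htseq-count). The submitters' processing notes name mm10, FastQC and HTSeq. The annotation, the strand setting and the versions are not given in the sources used here. The deposited counts hold 3912350 to 8657546 reads per library.

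Groups were taken from the sample labels. Counts of replicates of 1 population and day differed by more than counting error, with chi-square values per degree of freedom of 16.997 to 85.2. Counts were filtered with filterByExpr (minimum count 10, minimum total 15), scaled by TMM and tested with edgeR's quasi-likelihood test and Benjamini-Hochberg adjustment over all genes tested, with genes called at an adjusted p under 0.01. CD44LowKitNeg was compared with CD44Neg in a fit of their 16 libraries, and the other population comparisons came from 1 fit of all 22. Stages were compared within CD44Neg (10 libraries) and CD44LowKitNeg (6), and the interaction used 11. The SE of a log2 fold change is its size divided by the square root of the F statistic, and fold changes used a prior count of 0.125. Normalized CPM came from the 22-library fit. Correlations used log2 CPM with a prior count of 2. A population at 0 counts was set at 3 counts per library, and the mean of the other population was divided by that limit. Pooled-count ratios have exact 95% intervals.

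All 10 members are named in the population comparisons, by counts where they were not tested. For the lists of other surface markers and of relatives, up to 4 called genes with the largest changes are named per comparison, some of which are not reported here, and the SLAM genes of the region of *Cd48*, *Adgre1* and other genes were named after their values were seen. The members and lists were chosen with earlier results of these data known. Gene positions and exon lengths are from GENCODE M21 (GRCm38, the build of mm10) and promoters from RefSeq (GRCm38.p6), where 9 of the 10 members had a window.

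The alternatives were DESeq2's size factors, no filter, DESeq2's Wald test, limma voom, *Rn45s* left out, stage as a covariate, all 22 libraries, stages apart, a threshold of 0.05, and each library left out in turn. The fit without both E9.5 CD44Low libraries was added after seeing the data. Simulated data with known changes were used to test the scripts. The tools were R 4.3.3, edgeR 4.0.16, limma 3.58.1, DESeq2 1.42.0, Python 3.11.15, pandas 2.3.3 and matplotlib 3.10.9.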

Additional observations from a re-analysis of the deposited data

Results flagged for a closer look

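Single libraries that stood apart from the rest of their population were found in 9 of the 23 combinations of gene and group that could be checked. Chance alone flags about 1 in 20 groups, but that share does not hold for the 5 of the 9 in which all other libraries had 0, since any count then stands apart. 2 of the 9 are the same library and gene met again within E9.5. In CD44Neg, replicate 9 had 546 normalized CPM of *Cd34*, below the other 9 libraries at 929 to 1237. Replicate 3 of the same population had 8.52 normalized CPM of *Ace*, above the other 9 at 0 to 2.41, and within E9.5 replicate 7 had 0.430, from 3 counts, where the other 3 had 0. *Spn* reached 4.28 normalized CPM in CD44Neg replicate 6, from 23 counts, which stood apart both among all 10 libraries and among the 4 of E9.5. *Cd27* reached 1.67 normalized CPM in CD44Neg replicate 5, from 7 counts, again both overall and within E9.5, since the other 9 libraries had 0. In CD44LowKitNeg, replicate 12 had 0.129 normalized CPM of *Ptprc* from 1 count, and replicate 14 had 0.232 of *Cd48* from 2 counts, where the other 5 libraries had 0. The values of *Ace* in replicate 7, *Ptprc* and *Cd48* are at or below the limit of 3 counts per library.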

How the results depend on the processing

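Of the fold changes of single members in fits that left out 1 library, 1223 kept their direction and their side of the threshold, 10 passed it in addition, 18 lost it and 22 took the opposite sign. Under the other alternatives these numbers were 521, 36, 13 and 3. The number of members called between CD44LowKitNeg and CD44Neg (1, with 1121 genes called in all) became 3 with DESeq2's Wald test (1749 in all) or stage as a covariate (1296), 2 with limma voom (1370) or at E11 alone (376), 0 at E9.5 and E10 alone (304), 4 at an adjusted p under 0.05 (2217), and 1 to 2 when leaving out each library in turn, with 2 (*Ace* added) without CD44Neg replicate 3. Between CD44LowKitPos and CD44LowKitNeg (2) it became 5 with limma voom (1244 in all), 0 at E9.5 and E10 alone, where 9 genes in all were called against 552, and 1 to 3 without each library. Without CD44LowKitPos replicate 17 it was 1, with 65 genes called in all, and without replicate 18 it was 1, with 160. Between CD44LowKitPos and CD44Neg (3), where 451 genes were called in all, it became 5 with limma voom (729) or at 0.05 (941), and 1 to 4 without each library. Between CD44High and CD44LowKitPos (6, with 390 in all) it became 4 with limma voom (485), stage as a covariate (354) or both E9.5 CD44Low libraries left out (304), and 4 to 6 without each library. Within CD44Neg, DESeq2's Wald test called 1 member between E11 and E10 (46 genes in all against 0). Within CD44LowKitNeg, 1 was called with DESeq2's Wald test (558 in all), limma voom (68) or at 0.05 (235), against 0 (19). *Cd34* between CD44LowKitPos and CD44LowKitNeg was 0.057 at E9.5 and E10 alone. *Ace* between CD44LowKitPos and CD44Neg was −1.02 with limma voom, −6.19 without both E9.5 CD44Low libraries and −6.24 to 1.32 without each library, the lowest without CD44LowKitPos replicate 19. Without that replicate CD44LowKitPos had 0 counts of *Ace*, so that −6.19 and −6.24 rest on the prior count and are not measured folds. When leaving out single libraries, small stage differences in CD44Neg also changed sign. *Cd34* ranged from −0.17 to 0.046 (E11 against E9.5), −0.43 to 0.11 (E10 against E9.5) and −0.12 to 0.40 (E11 against E10). Between E11 and E10, *Procr* ranged from −0.10 to 0.47 and *Emcn* from −0.14 to 0.14. The interactions ranged from −0.12 to 0.48 for *Procr*, −0.58 to 2.24 for *Ace* and −0.22 to 0.12 for *Cd93*. With limma voom, *Procr* in CD44High had an adjusted p of 0.0722 against CD44LowKitPos and 0.230 against CD44Neg. The cause was not tested. No paired analysis was made, because each library has a replicate number of its own and the labels name no embryo shared by 2 groups. The number of 6 digits is shared by all libraries of a stage, and the fits with stage as a covariate group the libraries in the same way.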
